A study of Mus musculus with 12 samples.

Results

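Genes of voltage-gated and potassium ion channels were described in mouse embryonic fibroblasts (MEFs) that overexpressed cardiac transcription factors (TFs). The members were the genes whose symbol begins with Kcn, Cacn, Hcn and a number, or Scn and a number, without Kcnmb1 and without the epithelial sodium channel genes (Scnn). They comprised 95 of the 12393 genes with a probe set of their own on the array, and were read by 137 of 22626 probe sets. Each gene was represented by the probe set with the highest mean log2 signal over all 12 arrays. The cells were C57BL/6 MEFs, first transduced with a lentivirus for M2rtTA, a transactivator that acts in the presence of doxycycline, so that all 4 groups carried it. TF group 1 additionally received viruses for GATA4, TBX5 and MEF2C, TF group 2 received those and Mesp1 and SMARCD3, and TF group 3 received those 5 and MYOCD and SRF. The negative control carried M2rtTA alone. Each group had 3 arrays, called biological replicates in the labels, with RNA of the whole culture taken after 7 days of doxycycline. By the methods of the study, the medium of the cultures also held valproic acid, and the delivered cDNAs were human except for Mesp1. Nothing in the sources used here says how many cells of a culture took up every virus, and in such RNA a change in the number of cells of a type and a change in RNA per cell cannot be told apart.

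Voltage-gated channels open when the membrane potential changes. Sodium channels carry the upstroke of the action potential in neurons and in atrial and ventricular muscle, calcium channels couple it to contraction or secretion, and potassium channels return the membrane to rest. Inwardly rectifying and leak potassium channels set the resting potential, HCN channels carry a pacemaker current, and auxiliary subunits change how the pore subunits reach the membrane and how they open and close.

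Channel transcripts were dim on this array, on which 20.4% to 24.2% of probe sets read below a log2 signal of 5. Of the 95 members, 46 lay above a mean log2 signal of 5 (a signal of 32), or 48.4%, against 79.6% of all genes. Of the 49 others, 22 lay below 5 on every array and 14 had at least 1 group mean above it. The 3 members just above were Kcnd1, Kcna6 and Kcna7 (mean log2 signals 5.03, 5.03 and 5.09), and the 3 just below were Cacna1d, Kcnk7 and Kcna3 (4.99, 4.99 and 4.97). Above 5 were 5 of 9 calcium channel pore genes (Cacna1a, Cacna1c, Cacna1f, Cacna1g and Cacna1h), 5 of 14 auxiliary calcium channel genes, 1 of 2 HCN genes, and 2 of 8 sodium channel pore genes together with the single beta subunit, Scn3b. Among potassium channels they were 11 of 20 voltage-gated pore genes, 7 of 14 auxiliary genes, 6 of 13 inward rectifiers (Kcnj) and 4 of 8 leak channels (Kcnk). Genes with symbols in Kcnma, Kcnn or Kcnu were counted together, and 4 of 6 lay above 5. The median SD between replicate arrays was 0.81 on the log2 scale for members at or below 5, 0.36 for those between 5 and 7, and 0.18 for the 8 above 7.

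Against the negative control, 12 of 95 members were higher and 4 lower in TF group 1, 12 were higher and 5 lower in TF group 2, and 11 were higher and 2 lower in TF group 3. A gene was called where its adjusted p in limma was under 0.05 and its fold change over 1.5. Over all genes, 15.1% were called higher and 8.93% lower in TF group 1, while these shares were 15.3% and 10.1% for TF group 2, and 14.7% and 9.84% for TF group 3. The members' shares were 12.6% and 4.21%, 12.6% and 5.26%, and 11.6% and 2.11%, so none of the 6 shares exceeded that of all genes. Among the 46 members above a mean log2 signal of 5, the shares called higher in the 3 TF groups were 26.1%, 26.1% and 21.7%, and those called lower 4.35%, 6.52% and 4.35%. Over all genes above 5 these shares were 17.9%, 18.1% and 17.3%, and 10.5%, 11.8% and 11.6%. The median difference of the members was 0.20, 0.13 and 0.24 on the log2 scale, beside 0.07, 0.06 and 0.05 for all genes. Among all 4 groups, 20 members (21.1%) differed in the F test, where 49.8% of all genes did. Of these 20, 17 lay above a mean log2 signal of 5 and 3 below. That share was 60.2% for all genes above 5 and 9.04% for all genes at or below it, and 37% for the members above 5.

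In total 25 of the 95 members were called in at least 1 comparison, and 70 in none. All 25 were called in some TF group against the negative control, where 34.5% of all genes were called. Scn3b, Kcnj15, Kcnmb4, Cacna1h and Kcnh2 were higher in all 3 TF groups, and Kcnab1 and Kcnn4 were lower in all 3. The share of all genes called in all 3 TF groups was not counted. The 3 comparisons share the same 3 control arrays. These directions are on the deposited scale, which gives every array the same trimmed mean. Probe sets for poly-A spikes, bacterial transcripts meant to be added to each RNA, were brighter on the TF arrays by 0.97, 0.81 and 0.84 on the log2 scale. The sources used here do not say how, or in what amounts, such spikes were added. The mean log2 signal of these probe sets was 7.89, 6.99 and 7.39 on the control arrays, and 8.20 to 8.45 on the TF arrays. Scaling to them thus spreads the control arrays apart, and this spread enters the variance shared by all groups. With the arrays scaled to these spikes instead, the median difference of all probe sets was -0.91, -0.77 and -0.79 in place of 0.06, 0.05 and 0.05. On that scale 2, 3 and 3 members were called higher (Scn3b in each, Kcnc4 in TF groups 1 and 2, Kcnj15 in TF groups 2 and 3, and Hcn3 in TF group 3) and 32, 27 and 26 lower. The shares of all genes called on the spike scale were not counted, so these counts cannot be set against them. Of the 54 called differences, 24 remained called in the same direction on the spike scale and 12 changed sign.

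**Figure D1:**
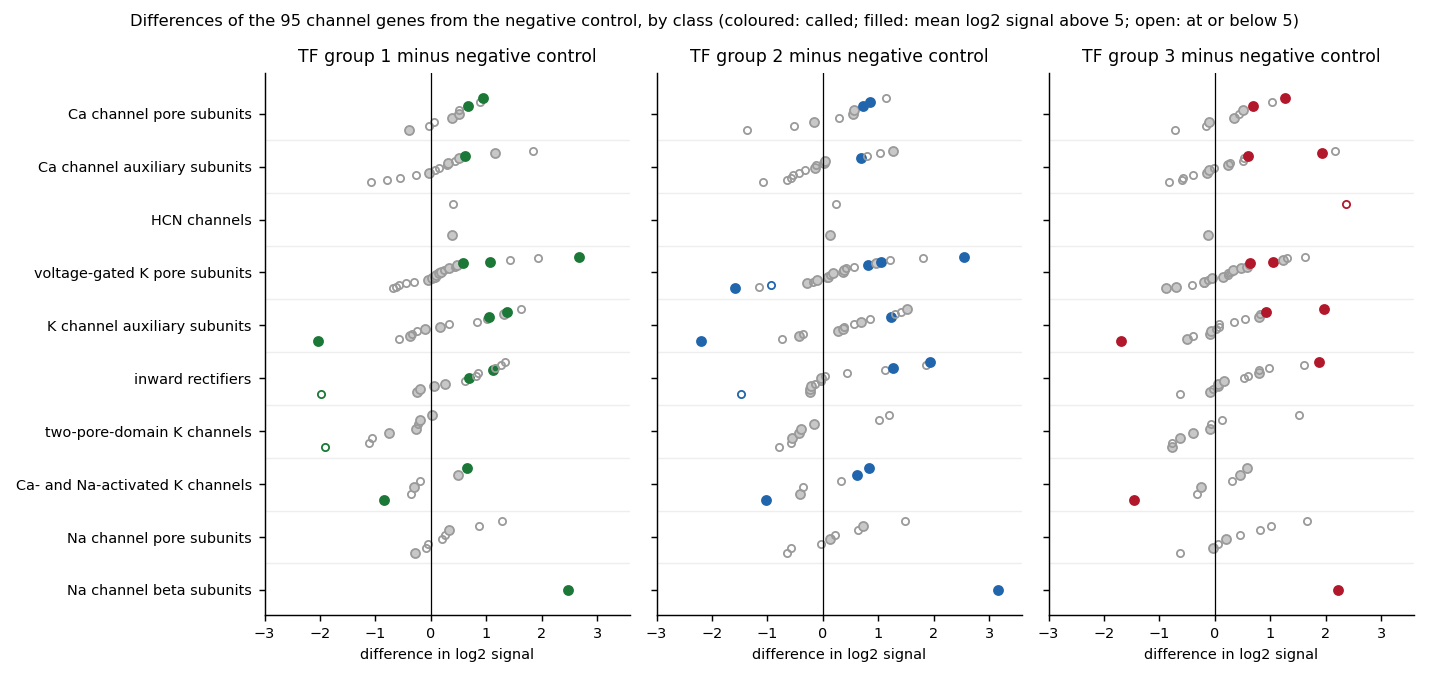
Difference in log2 signal (x axis) of each of the 95 channel genes between a TF group and the negative control, by class of channel, one panel per TF group (n = 3 arrays per group). Coloured points were called, filled points lie above a mean log2 signal of 5 and open ones at or below it; most called points lie to the right of 0, with Kcnab1, Kcnn4, Kcna7 and several dim genes to the left. On the spike scale 2, 3 and 3 genes were called higher and 32, 27 and 26 lower, and the shares of all genes were not counted there.

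Scn3b, a beta subunit that modulates sodium channel gating and is known from heart and brain, had the largest fitted difference of the members above a mean log2 signal of 5 in TF group 2, and again in TF group 3. Its log2 signal was 8.10, 7.84 and 7.95 on the TF group 1 arrays, 8.74, 8.57 and 8.65 in TF group 2, with 7.87, 7.69 and 7.59 in TF group 3, against 5.45, 5.69 and 5.34 in the negative control. All TF arrays lay above all control arrays, and the TF group 2 arrays above all others. The gene rose by 5.54-, 8.96- and 4.68-fold in TF groups 1, 2 and 3 (log2 differences 2.47, 3.16 and 2.23, SE 0.11, and adjusted p = 3.57e-07, 6.71e-08 and 5.27e-07). It stayed called on the spike scale, with log2 differences of 1.504, 2.35 and 1.39. A dimmer Scn3b probe set (mean log2 signal 4.05) was called higher in TF groups 1 and 2 (2.11 and 2.10), and was at 1.26 in TF group 3 (adjusted p = 0.0582). None of the 8 sodium channel pore genes measured was called in any comparison on the deposited scale. On the spike scale Scn10a was called lower in TF group 1, and Scn2a and Scn9a were called lower in TF group 3. Scn2a and Scn10a, which lay above 5, had log2 differences between -0.29 and 0.72.

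Of the calcium channels, Cacna1h and Cacna1g encode pores of the T type, which open near the resting potential and take part in pacemaking. Cacna1h had log2 signals of 7.24, 6.98 and 6.40 in TF group 1, 6.65, 6.98 and 6.36 in TF group 2, with 6.93, 7.29 and 7.40 in TF group 3, against 6.06, 5.86 and 5.90 in the negative control, with no overlap. It was 1.91-, 1.65- and 2.41-fold higher (log2 differences 0.93, 0.72 and 1.27, SE 0.23, and adjusted p = 0.00942, 0.0313 and 0.00165). On the spike scale the differences were -0.03, -0.09 and 0.43 and none was called, and its dimmer probe set (mean 4.75) was not called either (0.56, 0.35 and 0.51). In TF group 2 the call was also lost without replicate 2 or 3 of the negative control (0.68 and 0.70) or replicate 1 or 2 of TF group 2 (0.73 and 0.57). Cacna1g, the other T-type gene measured and the brightest member, was 1.60-fold higher in TF group 1 (log2 difference 0.67, SE 0.08, and adjusted p = 0.000168), with 8.34 to 8.56 on its arrays against 7.68 to 7.83 in the negative control. It stayed under the fold threshold in TF groups 2 and 3, with arrays between 8.01 and 8.36 that again lay above all control arrays (log2 differences 0.55 and 0.35). Its differences on the spike scale were -0.29, -0.27 and -0.49, none called.

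Cacna1f, an L-type gene known from the retina, rose in TF groups 2 and 3, by 1.79-fold and 1.62-fold (log2 differences 0.84 and 0.70, SE 0.23; 0.03 and -0.14 on the spike scale). Without replicate 3 of the negative control neither was called (0.68 and 0.53), and in TF group 3 the call was also lost without replicate 2 of the negative control (0.76) or replicate 1 or 3 of TF group 3 (0.69 and 0.54). Cacna1c, the L-type pore gene of cardiac and smooth muscle, was not called. Its log2 signals were 7.22, 7.45 and 7.25 in TF group 1, 7.63, 7.51 and 7.48 in TF group 2, with 7.56, 7.65 and 7.56 in TF group 3, against 8.03, 7.56 and 7.50 in the negative control. The differences were -0.39, -0.16 and -0.11 (SE 0.13, and adjusted p = 0.0384, 0.387 and 0.578), and on the spike scale the gene was called lower in each TF group (-1.36, -0.97 and -0.95). Cacna1a, a neuronal pore gene above a log2 signal of 7, had differences of 0.50, 0.56 and 0.51 (adjusted p = 0.0634, 0.042 and 0.0616), all under the fold threshold. Its other probe set (mean 6.35) was called higher in TF group 1 (0.92, adjusted p = 0.00315) and lower in TF group 3 against TF group 1 (-0.80, adjusted p = 0.0203).

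Of the auxiliary calcium channel genes, Cacna2d1, an alpha-2-delta subunit that raises the number of channels at the membrane, was highest in TF group 3. Its arrays read 6.63, 7.00 and 7.14 in TF group 1, 7.26, 7.33 and 6.48 in TF group 2, with 7.70, 7.63 and 7.74 in TF group 3, against 6.55, 6.42 and 4.31 in the negative control. The third control array stood apart, and the TF group 3 arrays lay above all others. The gene was 3.82-fold higher in TF group 3 (log2 difference 1.93, SE 0.52, and adjusted p = 0.0151), or by 1.21 without replicate 3 of the negative control (adjusted p = 0.00591), and by 1.09 on the spike scale, where it was not called. In TF groups 1 and 2 the differences of 1.16 and 1.26 did not pass. A second, dimmer probe set was at 0.47, 0.55 and 0.79 and was not called.

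Cacna2d3 of the same family was 1.53-fold higher in TF group 1 (log2 difference 0.62, SE 0.17; -0.35 on the spike scale). That call was lost without any 1 of 4 arrays, replicates 2 and 3 of the negative control (0.57 and 0.58) and replicates 1 and 2 of TF group 1 (0.57 and 0.56). Cacnb1, the beta subunit of skeletal muscle channels that also occurs in other tissues, rose in TF groups 2 and 3, by 1.61-fold and 1.52-fold (log2 differences 0.69 and 0.60, SE 0.21; -0.12 and -0.23 on the spike scale). In TF group 2 it was not called without replicate 1 of the negative control (0.57) or replicate 1 or 3 of TF group 2 (0.58 and 0.63). In TF group 3 it was not called without any 1 of the 3 control arrays (0.48, 0.66 and 0.68), replicate 1 or 3 of TF group 3 (0.66 and 0.43), or replicate 1 or 3 of TF groups 1 or 2 (0.60 in each case, since only the shared variance changed). Another Cacnb1 probe set (mean 5.16) was called in TF group 1 (1.77).

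Voltage-gated potassium channel pore genes moved in both directions. Kcnh2, which encodes the channel of the rapid delayed rectifier current of the heart, read 6.24, 6.41 and 6.27 in TF group 1, 6.70, 6.72 and 6.86 in TF group 2, with 6.67, 6.82 and 6.83 in TF group 3, against 6.06, 5.76 and 5.33 in the negative control. Every TF array lay above every control array. It was 1.505-, 2.06- and 2.08-fold higher (log2 differences 0.59, 1.05 and 1.06, SE 0.16, and adjusted p = 0.0142, 0.000496 and 0.000484; -0.38, 0.23 and 0.22 on the spike scale, none called). The call in TF group 1 was lost without replicate 3 of the negative control (0.40) or replicate 2 of TF group 1 (0.54).

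Kcnc4, a further voltage-gated pore gene, read 6.80, 6.72 and 6.54 in TF group 1, with 6.62, 6.35 and 6.73 in TF group 2, against 5.52, 3.14 and 3.38 in the negative control. TF group 3 lay between, at 4.12, 5.94 and 5.68, and overlapped with the control. Since its control mean was below a log2 signal of 5, its folds are given against a signal of 32, and the increases in TF groups 1 and 2 were at least 3.22-fold and at least 2.96-fold (fitted log2 differences 2.67 and 2.56, SE 0.63, and adjusted p = 0.00751 and 0.00917; 1.71 and 1.74 on the spike scale, both called). In TF group 3 the difference of 1.23 did not pass (adjusted p = 0.16), but it was called without replicate 1 of the negative control (1.99) or replicate 1 of TF group 3 (1.80). The dimmer Kcnc4 probe set (mean 3.82) was at 1.51, 0.13 and -0.35 and was not called.

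Kcna1, a neuronal channel of the Shaker family, read 7.02, 6.56 and 6.86 in TF group 1 and was 2.10-fold higher there than in the negative control, which read 5.71, 5.27 and 6.26 (log2 difference 1.07, SE 0.29, and adjusted p = 0.0163; 0.10 on the spike scale, not called). Its arrays were at 6.36, 5.43 and 5.75 in TF group 2 and at 6.49, 6.02 and 6.13 in TF group 3, and both groups overlapped with the control. Without replicate 2 of the negative control or replicate 1 of TF group 1 the call was lost (0.83 and 0.97). Kcna4, a transient outward channel found in heart and brain, rose in TF groups 2 and 3, by 1.77-fold and 1.55-fold (log2 differences 0.82 and 0.63, SE 0.22; 0.01 and -0.21 on the spike scale). In TF group 3 this call was lost without replicate 2 or 3 of the negative control (0.51 and 0.59), replicate 1 of TF group 2 (0.63), or any 1 of the TF group 3 arrays (0.65, 0.60 and 0.65).

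Kcna7, known from heart and skeletal muscle, was lower in TF group 2. It read 5.64, 5.67 and 5.99 in TF group 1, 3.99, 3.46 and 4.85 in TF group 2, with 5.41, 3.82 and 5.18 in TF group 3, against 5.26, 5.83 and 5.99 in the negative control. The TF group 2 arrays all lay below the control arrays. Taken from the control mean to a signal of 32, the decrease was at least 1.62-fold (fitted log2 difference -1.59, SE 0.45, and adjusted p = 0.0189; -2.41 on the spike scale). It was not called without replicate 2 or 3 of the negative control (-1.53 and -1.44) or replicate 1 or 2 of TF group 2 (-1.54 and -1.28). Kcnq5, a channel of the M current in neurons, was called lower in TF group 2 at a mean log2 signal under 5, so no fold is given. This call too was lost without replicate 1 or 3 of the negative control (-0.95 and -0.74) or replicate 1 or 3 of TF group 2 (-0.96 and -0.76).

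Kcnab1, a cytoplasmic beta subunit that speeds inactivation of Shaker channels, showed the largest decrease of a member above a mean log2 signal of 5. It read 6.44, 6.80 and 6.94 in TF group 1, 6.79, 6.15 and 6.73 in TF group 2, with 6.82, 6.66 and 7.68 in TF group 3, against 8.97, 8.66 and 8.63 in the negative control, with no overlap. The gene was 4.07-, 4.59- and 3.24-fold lower (log2 differences -2.03, -2.20 and -1.70, SE 0.28, and adjusted p = 0.000303, 0.000166 and 0.000919; -2.99, -3.01 and -2.54 on the spike scale). Its second probe set (mean 4.10) was also called lower in all 3 groups (-3.71, -3.51 and -2.39). Kcnmb4, the beta subunit of large-conductance calcium-activated channels in the brain, moved the other way. It read 7.94, 7.79 and 7.75 in TF group 1, 7.78, 7.51 and 7.75 in TF group 2, with 7.23, 7.58 and 7.34 in TF group 3, against 6.30, 6.59 and 6.47 in the negative control. It was 2.59-, 2.34- and 1.90-fold higher (log2 differences 1.37, 1.23 and 0.93, SE 0.12, and adjusted p = 1.55e-05, 2.78e-05 and 0.00019), or by 0.41, 0.42 and 0.09 on the spike scale, where it was not called. Its pore subunit gene Kcnma1 was not called, with differences of -0.30, -0.41 and -0.25, but on the spike scale it was called lower in all 3 TF groups. A second Kcnma1 probe set (mean 5.76) had differences of the other sign on the deposited scale (0.22, 0.59 and 0.71), none called.

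Kcnip3, a calcium-binding protein that acts on A-type channels and also as a transcriptional repressor, read 6.16, 6.32 and 5.57 in TF group 1, 6.59, 5.76 and 6.28 in TF group 2, with 6.69, 6.39 and 6.94 in TF group 3, against 5.75, 5.05 and 3.29 in the negative control. It was called in TF group 3, at least 3.19-fold higher against a signal of 32 (fitted log2 difference 1.98, SE 0.54, and adjusted p = 0.0159; 1.14 on the spike scale, not called). Without replicate 3 of the negative control the difference was 1.27 and still called, and without replicate 3 of TF group 3 it was 1.84 and not called. Its dim second probe set was called in the same group (1.11). Kcnab2, a further beta subunit, read 6.46, 5.88 and 6.21 in TF group 1 against 5.53, 5.28 and 4.58 in the negative control, and was 2.07-fold higher (log2 difference 1.05, SE 0.29, and adjusted p = 0.0166; 0.08 on the spike scale, not called). Its arrays were at 5.83, 5.50 and 6.13 in TF group 2, with 5.76, 6.36 and 5.67 in TF group 3, where it did not pass (0.69 and 0.80). The call in TF group 1 was lost without replicate 3 of the negative control (0.77) or replicate 1 of TF group 1 (0.91).

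Among the inward rectifiers, Kcnj15, known mainly from kidney and other epithelia, was highest in TF groups 2 and 3. It read 6.25, 6.83 and 6.77 in TF group 1, 7.89, 7.87 and 7.81 in TF group 2, with 7.91, 7.61 and 7.86 in TF group 3, against 6.01, 5.74 and 6.01 in the negative control. It was 1.62-, 3.83- and 3.67-fold higher (log2 differences 0.70, 1.94 and 1.87, SE 0.15, and adjusted p = 0.00521, 7.43e-06 and 9.91e-06). On the spike scale it stayed called in TF groups 2 and 3 (1.12 and 1.04) but was at -0.27 in TF group 1. Kcnj6, a subunit of G protein-gated channels in neurons, read 7.10, 6.03 and 6.26 in TF group 1, 6.82, 6.90 and 6.09 in TF group 2, with 5.95, 5.98 and 6.44 in TF group 3, against 5.74, 5.01 and 5.26 in the negative control. It rose in TF groups 1 and 2, by 2.18-fold and 2.40-fold (log2 differences 1.13 and 1.26, SE 0.33; 0.16 and 0.45 on the spike scale, not called). Its other 4 probe sets disagreed. One was called lower in TF group 1 (-0.64, adjusted p = 0.0471), another had negative differences that did not pass (-0.51, -1.20 and -1.09), and the remaining ones had positive differences that did not pass either (1.06, 1.29 and 1.22, and 1.16, 1.18 and 1.23). In TF group 1 the call was lost without replicate 2 or 3 of the negative control (0.96 and 1.09) or replicate 1 of TF group 1 (0.81).

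Kcnn4, the intermediate-conductance calcium-activated channel that is known from blood cells and proliferating fibroblasts, was lower in all TF groups. It read 6.76, 6.64 and 5.97 in TF group 1, 6.52, 6.06 and 6.23 in TF group 2, with 5.79, 5.98 and 5.75 in TF group 3, against 7.31, 7.41 and 7.17 in the negative control, with no overlap. The gene was 1.79-, 2.04- and 2.74-fold lower (log2 differences -0.84, -1.03 and -1.46, SE 0.20, and adjusted p = 0.00796, 0.00239 and 0.00029; -1.81, -1.84 and -2.30 on the spike scale). A second Kcnn4 probe set of similar brightness (mean 6.03) did not share the change, with differences of 0.25, 0.07 and -0.39, none called. Kcnn1, a small-conductance channel of neurons, rose in TF groups 1 and 2, by 1.58-fold and 1.53-fold (log2 differences 0.66 and 0.62, SE 0.13; -0.30 and -0.20 on the spike scale), and its second probe set was called higher in all 3 groups (1.41, 1.51 and 0.83). Without replicate 2 of the negative control Kcnn1 fell under the fold threshold in both (0.54 and 0.50), and in TF group 2 also without replicate 1 of the negative control (0.58). Kcnu1, a channel of sperm, was 1.79-fold higher in TF group 2 only (log2 difference 0.84, SE 0.27; 0.03 on the spike scale), and was not called without replicate 2 or 3 of the negative control (0.83 and 0.58) or replicate 3 of TF group 2 (0.63). In TF groups 1 and 3 it passed without replicate 1 of the negative control (0.75 and 0.84).

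**Figure D2:**
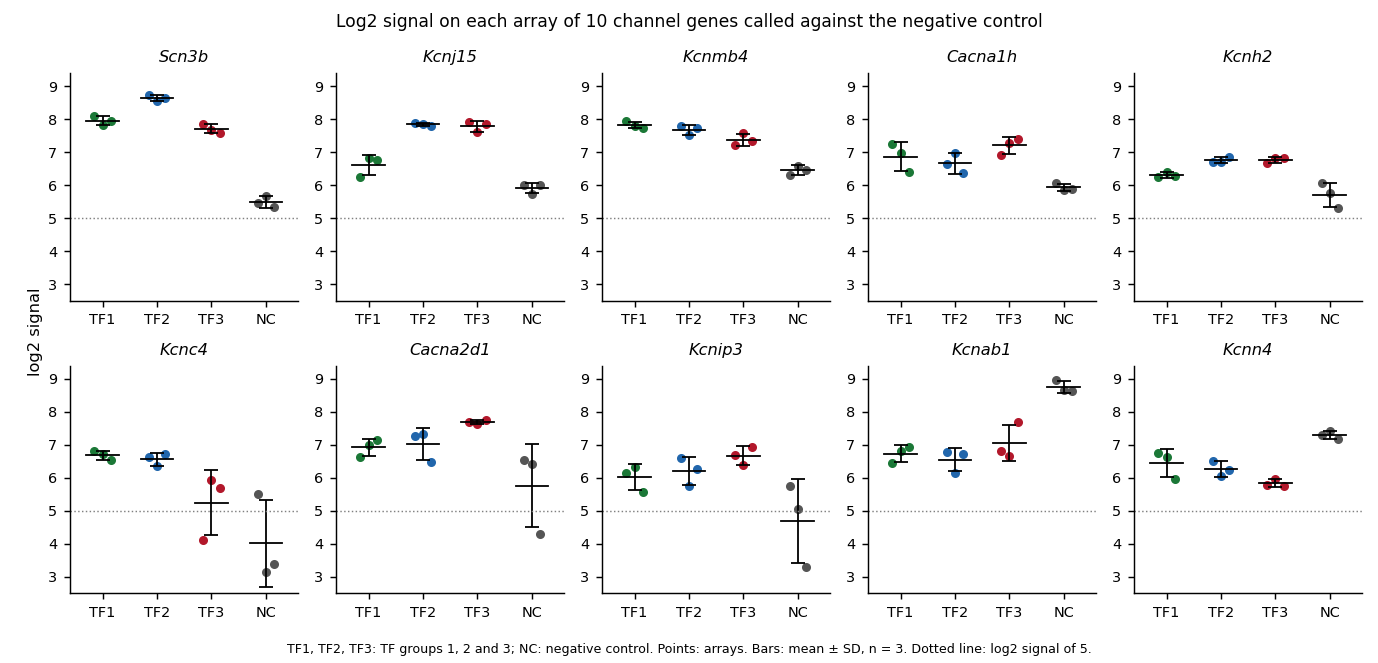
Log2 signal (y axis) of 10 called channel genes on each array of TF groups 1, 2 and 3 and the negative control (points; bars are mean ± SD, n = 3 arrays per group, and the dotted line marks a log2 signal of 5). Scn3b, Kcnj15, Kcnmb4, Cacna1h and Kcnh2 lie higher on all TF arrays than on the control arrays, Kcnab1 and Kcnn4 lie lower, and for Kcnc4, Cacna2d1 and Kcnip3 the control arrays spread widely. On the spike scale Kcnj15 and Kcnh2 in TF group 1 and Cacna1h in TF groups 1 and 2 had negative differences.

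Of the dim members, Hcn3, which encodes a subunit of the pacemaker channel family, was called higher in TF group 3 (adjusted p = 0.0143), where its arrays read 5.71, 4.95 and 5.30, against 3.27, 2.34 and 3.25 in the negative control. The call was lost without replicate 2 of the negative control (2.06) or replicate 1 of TF group 3 (2.18), and it held on the spike scale (1.53). Hcn2, above 5 and not called, had differences of 0.39, 0.13 and -0.12 (SE 0.30). Among leak channels, Kcnk2, a channel opened by stretch and lipids, differed among the 4 groups in the F test (adjusted p = 0.00179) but stayed under the fold threshold. Its arrays read 6.93 to 7.19 in TF group 1, 6.36 to 6.57 in TF group 2 and 6.61 to 6.70 in TF group 3, against 6.96 to 7.22 in the negative control. On the spike scale Kcnk2 was called lower in all 3 TF groups.

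Between TF groups few members differed. TF group 2 exceeded TF group 1 at 3 members and fell below it at 0 (2.08% and 1.78% of all genes), TF group 3 exceeded TF group 2 at 0 and fell below it at 1 (2.32% and 1.7%), and TF group 3 exceeded TF group 1 at 3 and fell below it at 1 (3.26% and 3.05%). With the unadjusted p under 0.05, 8, 6 and 8 members passed in these comparisons. Kcnj15 exceeded its TF group 1 level by 2.36-fold in TF group 2 and by 2.26-fold in TF group 3 (log2 differences 1.24 and 1.18, SE 0.15, and adjusted p = 0.00145 and 0.00106), with no overlap of the arrays, and both calls held on the spike scale (1.39 and 1.30). TF groups 3 and 2 differed by -0.06 (95% interval -0.41 to 0.28). For Scn3b, TF group 2 exceeded TF group 1 by 1.62-fold, and TF group 3 lay 1.91-fold below TF group 2 (log2 differences 0.69 and -0.94, SE 0.11, and adjusted p = 0.00642 and 0.00116). On the spike scale these differences were no smaller (0.85 and -0.96), but neither was called (adjusted p = 0.246 and 0.176). TF group 3 and TF group 1 differed by -0.24 at Scn3b (95% interval -0.50 to 0.01).

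Kcnk3, a leak channel opened at alkaline and closed at acidic pH, lay at a mean log2 signal of 4.74 over all arrays. It read 2.54, 3.02 and 2.46 in TF group 1, 5.81, 5.15 and 5.83 in TF group 2, with 6.12, 6.20 and 5.98 in TF group 3, while the negative control spread from 2.97 to 5.77. TF groups 2 and 3 were called higher than TF group 1 (adjusted p = 0.0172 and 0.00446). The first of these calls was lost without replicate 1 or 3 of TF group 1 (2.86 and 2.82) or replicate 1 or 3 of TF group 2 (2.82 and 2.81). TF group 1 was called lower than the negative control although the arrays overlapped (adjusted p = 0.0267), and this was lost without replicate 1 or 3 of the negative control (-1.70 and -1.32) or replicate 1 or 3 of TF group 1 (-1.85 and -1.81). Its other 2 probe sets, with means of 3.54 and 2.20, were not called. Kcnj14, an inward rectifier at a mean of 3.66, was called lower than the negative control in TF groups 1 and 2 while TF group 3 was called above TF group 1, with group means below 5 throughout. The calls were lost in TF group 2 without replicate 3 of the negative control (-1.42) or replicate 1 or 3 of TF group 2 (-1.29 and -1.27), and between TF groups 3 and 1 without replicate 3 of TF group 1 (1.72). For Cacna2d3, TF group 3 lay 1.65-fold below TF group 1 (log2 difference -0.72, SE 0.17, and adjusted p = 0.0209; -0.59 on the spike scale, not called), with 5.45, 5.83 and 5.69 in TF group 3 against 6.46, 6.48 and 6.19 in TF group 1. This was not called without replicate 1 or 2 of TF group 1 (-0.67 and -0.67) or replicate 1 or 3 of TF group 3 (-0.62 and -0.73).

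**Figure D3:**
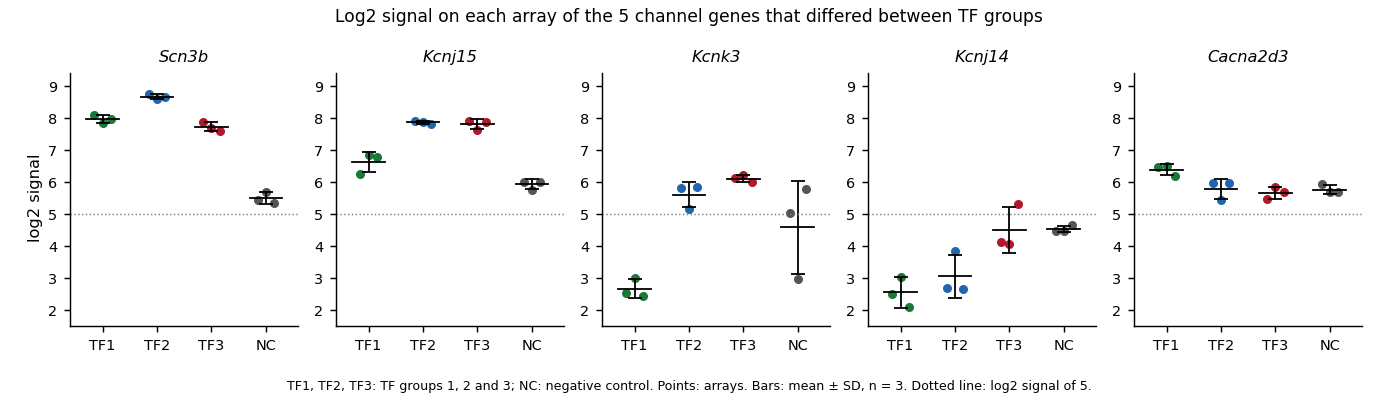
Log2 signal (y axis) of the 5 channel genes called between TF groups on each array of TF groups 1, 2 and 3 and the negative control (points; bars are mean ± SD, n = 3 arrays per group; dotted line, log2 signal of 5). Kcnj15 is higher on all arrays of TF groups 2 and 3 than in TF group 1, Scn3b is highest in TF group 2, and Kcnk3 is below 5 on the TF group 1 arrays and above 5 on those of TF groups 2 and 3.

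Channels best known from heart muscle were counted over 21 listed members. Of these, 11 lay above a mean log2 signal of 5, and 5 were called against the negative control in some TF group, 4 higher (Cacna1g, Cacna1h, Cacna2d1 and Kcnh2) and 1 lower (the dim Kcnk3). Over all genes 34.5% were called in some TF group in either direction. The 7 genes above 5 that were not called were Cacna1c, Hcn2, Kcnip2 and Kcnq1, and the inward rectifiers Kcnj3, Kcnj11 and Kcnj12. Kcnq1, the pore of the slow delayed rectifier, had differences of 0.15, 0.36 and -0.19 (SE 0.31). Kcnip2, the subunit of the transient outward channel, was at -0.10, 0.37 and -0.08 (SE 0.28), and the subunit genes Kcnj3 of the acetylcholine-gated channel and Kcnj11 of the ATP-sensitive channel lay between -0.23 and 0.25. Kcnj2 and Kcnj12, both of the inward rectifier current of ventricular muscle, differed in signal, the first being dim (mean 3.22) and the second above 5, with differences of 0.05, -0.23 and 0.05 (SE 0.34). These differences depend on the scaling. With spike scaling Kcnj12 was called lower in all 3 TF groups (-0.91, -1.05 and -0.79), Kcnj3 in TF groups 1 and 2 (-1.16 and -1.04), Kcnip2 in TF groups 1 and 3 (-1.06 and -0.91) and Kcnq1 in TF group 3 (-1.03), while Kcnj11 and Hcn2 lay between -0.96 and -0.58 and were not called. The dim Kcna5 of the atrial ultrarapid current was not called with all arrays (1.93, 1.80 and 1.62), but was called higher in TF groups 1, 2 and 3 without replicate 3 of the negative control (3.11, 2.99 and 2.80). Cacnb2, the cardiac beta subunit, was likewise called in TF groups 1 and 3 without that array (2.73 and 3.05), against 1.85 and 2.17 with it.

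**Figure D4:**
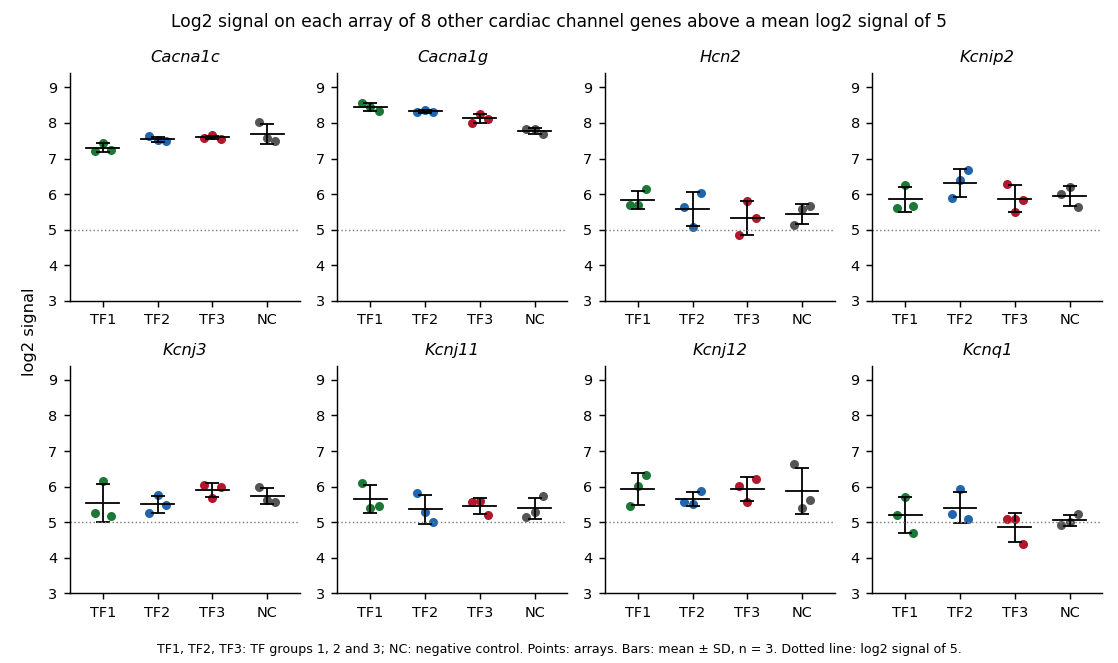
Log2 signal (y axis) of 8 further cardiac channel genes above a mean log2 signal of 5, on each array of TF groups 1, 2 and 3 and the negative control (points; bars are mean ± SD, n = 3 arrays per group; dotted line, log2 signal of 5). Cacna1g is higher on all TF arrays than on the control arrays and was called in TF group 1 (1.60-fold; a log2 difference of -0.29 on the spike scale), while the groups overlap for most of the other 7.

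Where a gene had several probe sets, they often disagreed. Of the members, 32 had more than 1, with 42 probe sets besides the brightest. For members called at their brightest probe set, 13 others were measured in TF group 1, 12 in TF group 2 and 8 in TF group 3. Of these, 3, 3 and 2 were called in the same direction, and 1 (Kcnj6, TF group 1) in the opposite one. Some others were called where the brightest was not, namely those of Cacna1a (0.92), Cacnb1 (1.77) and Kcnip1 (-1.60) in TF group 1, of Kcnip1 (-0.88) in TF group 2, and of Kcnn1 (0.83) and Kcnj9 (-2.80, at a mean of 1.99) in TF group 3. The probe sets that moved together were those of Scn3b, Kcnab1 and Kcnn1 in TF groups 1 and 2, and of Kcnab1 and Kcnip3 in TF group 3. Other probe sets are mostly dimmer, and those that recognise other transcript ends cannot be told apart here from those that read poorly.

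**Figure D5:**
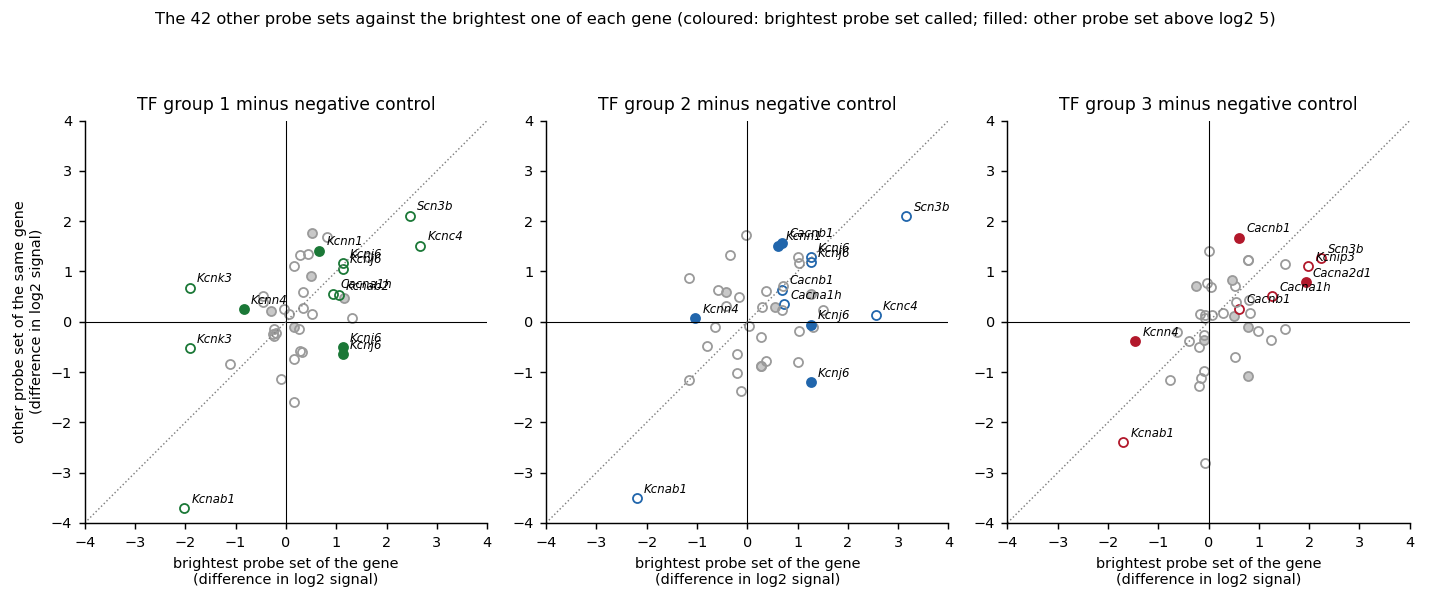
Difference in log2 signal between a TF group and the negative control for each of the 42 other probe sets (y axis) against the brightest probe set of the same gene (x axis), one panel per TF group (n = 3 arrays per group; coloured, brightest probe set called; filled, other probe set above a mean log2 signal of 5; dotted line, equal values). Scn3b and Kcnab1 lie in the quadrants of equal sign in each panel, while Kcnn4 lies between -0.39 and 0.25 on the y axis and probe sets of Kcnj6 lie on both sides of it.

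Genes that act beside these channels were counted as well. Of 36 measured genes for pumps and exchangers, channel scaffolds, chloride channels and TRP or store-operated channels, 7 were called higher and 2 lower in TF group 1. These counts were 10 and 1 for TF group 2 and 12 and 2 for TF group 3, where all genes had the shares of 15.1% and 8.93%, 15.3% and 10.1%, and 14.7% and 9.84% given above. Of the 36, 2, 4 and 4 were called higher and 21, 16 and 15 lower on the spike scale, where the shares of all genes were not counted. Stim1, the calcium sensor of store-operated entry, was higher in all 3 (log2 differences 1.64, 1.499 and 1.73), as were the chloride channel genes Clcn2 (2.00, 2.70 and 2.15, from a control mean below 5), Clcn3 (0.92, 1.39 and 0.68, but -0.05, 0.57 and -0.15 on the spike scale) and Ano1 (1.59, 1.45 and 1.26), and the membrane scaffold Ank3 (1.05, 1.5002 and 1.09). Fgf13, which binds sodium channels inside the cell, was lower in all 3 (-1.13, -1.40 and -0.80). Atp1b1, a sodium pump subunit, and Fgf12 were higher in TF groups 2 and 3 (1.21 and 1.43, and 1.81 and 1.70), and Cav3, the caveolin of muscle, in TF group 3 (1.03). On the spike scale Stim1 stayed called in TF groups 1 and 3, and Clcn2 in TF groups 2 and 3. Ano1 stayed called in TF groups 1 and 2, Ank3 in TF group 2 alone (0.69), and Clcn3 in none. Atp1b1 stayed called in TF group 3 (0.59) but not in TF group 2 (0.39). Fgf12 and Fgf13 kept their calls, while Cav3 did not (0.19). In TF group 1, Atp1b1, Fgf12 and Cav3 were called lower on that scale (-0.74, -1.52 and -0.67).

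Markers of several cell types moved with the groups, and their part in the channel results was not tested. All 10 fibroblast genes lay above 5, with a mean log2 signal of the list of 12.69 to 12.75 in TF group 1, 12.29 to 12.38 in TF group 2 and 11.94 to 12.16 in TF group 3, against 12.41 to 12.44 in the negative control. Of these, 2, 1 and 0 were called higher and 1, 2 and 3 lower, with S100a4 lower in each TF group (-0.60, -0.94 and -1.30), and Lum higher by 1.80 in TF group 1 and lower in TF group 3 (-1.87). Of 10 cardiac muscle genes, 5, 6 and 8 were higher in TF groups 1, 2 and 3 and 1 was lower in TF group 1, and the mean of the list was 5.74 to 6.26, 6.02 to 6.38 and 7.95 to 8.27, against 4.91 to 5.23 in the negative control. Its defining genes Myh6 and Tnni3 were at or below 5 on average over all arrays, but Myh6 averaged 7.70 in TF group 3 and was called higher there (log2 difference 5.86, adjusted p = 0.00314), and Tnni3 was called higher in each TF group with group means below 5. Of 11 neuronal genes, 4, 5 and 5 were higher (among them Tubb3, Stmn2 and Snap25 in each), and 1 was lower in each, Gap43 (-0.94, -0.75 and -1.60). Map2, Dcx and Syp, above 5, were not called in any TF group, and the defining genes Elavl4 and Syt1 lay at or below 5. The mean of the neuronal list was 6.55 to 6.67, 7.31 to 7.39 and 6.81 to 6.99, against 6.06 to 6.13. Of 7 smooth muscle genes 0, 1 and 3 were higher and 3, 2 and 0 lower. Of 10 skeletal muscle genes 2, 3 and 3 were higher, among them Myh1 (3.35, 4.58 and 3.48) and Actn3 (2.62, 2.83 and 2.45), and 1 was lower in each, Acta1 (-2.73, -2.67 and -1.39). The defining gene Myod1 (mean 6.55) was not called (-0.32, -0.08 and -0.08), and neither was Ckm. Myog, Myh4, Tnnt3 and Chrng lay at or below 5 and were not called. Of 7 macrophage genes 1 was lower in each TF group, Tyrobp in TF group 1 (-3.20) and Lyz2 in TF groups 2 and 3 (-2.03 and -1.50), and Ptprc, Itgam and Tyrobp lay at or below 5. Of 6 endothelial genes, Pecam1, Cdh5, Kdr, Tie1 and Vwf lay at or below 5, while Tek (mean 5.10) was higher in TF group 1 (0.71, adjusted p = 0.0444). None of 4 glial genes was called on the deposited scale. The shares of all genes called on the spike scale were not counted. Called higher on that scale were 2, 3 and 7 cardiac genes, 3, 4 and 3 neuronal genes and 2, 2 and 2 skeletal muscle genes. Smooth muscle had 0, 0 and 1. Called lower there were 2, 2 and 0 cardiac, 3, 3 and 4 neuronal and 3, 3 and 2 skeletal muscle genes. The other lists had 6, 7 and 9 fibroblast, 7, 5 and 4 smooth muscle and 7, 4 and 4 macrophage genes lower. Glial genes had 3, 2 and 3 lower, and endothelial genes 1, 0 and 2.

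To show what lies upstream of members that moved in the same direction in all TF groups, the 250 bases before the annotated start were taken from RefSeq (GRCm38.p6), which had promoters for 75 of the 95 members and 5 of these 7 (Kcnh2, Kcnj15, Kcnmb4, Kcnab1 and Kcnn4). Both strands were searched for GATA sites (AGATAA with the variant AGATAG and the further variants TGATAA as well as TGATAG), the T-box site AGGTGT, the E-box CANNTG of bHLH factors, and the MEF2 site and CArG box by name. Capitals mark all matches in Kcnj15 and Kcnmb4, which were higher (Kcnmb4 held none), and in Kcnn4 and the first of 3 annotated Kcnab1 starts, which were lower. They lie, in that order, at chr16:95257308-95257557 (plus strand), chr10:116473524-116473773 (minus strand), chr7:24370013-24370262 (plus strand) and chr3:64948962-64949211 (plus strand).
Kcnj15: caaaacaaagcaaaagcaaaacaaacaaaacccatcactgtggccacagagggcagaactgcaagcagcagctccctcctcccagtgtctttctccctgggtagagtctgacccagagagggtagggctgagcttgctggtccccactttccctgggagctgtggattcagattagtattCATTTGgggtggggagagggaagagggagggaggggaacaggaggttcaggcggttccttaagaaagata
Kcnmb4: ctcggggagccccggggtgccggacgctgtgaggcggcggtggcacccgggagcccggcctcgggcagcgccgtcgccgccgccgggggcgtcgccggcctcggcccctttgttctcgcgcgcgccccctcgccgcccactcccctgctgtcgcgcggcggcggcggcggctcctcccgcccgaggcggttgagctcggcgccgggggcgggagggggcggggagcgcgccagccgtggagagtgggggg
Kcnn4: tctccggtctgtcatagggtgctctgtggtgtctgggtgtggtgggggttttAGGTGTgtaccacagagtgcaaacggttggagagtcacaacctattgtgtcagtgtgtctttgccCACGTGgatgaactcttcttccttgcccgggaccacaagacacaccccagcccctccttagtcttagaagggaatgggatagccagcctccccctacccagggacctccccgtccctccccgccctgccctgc
Kcnab1: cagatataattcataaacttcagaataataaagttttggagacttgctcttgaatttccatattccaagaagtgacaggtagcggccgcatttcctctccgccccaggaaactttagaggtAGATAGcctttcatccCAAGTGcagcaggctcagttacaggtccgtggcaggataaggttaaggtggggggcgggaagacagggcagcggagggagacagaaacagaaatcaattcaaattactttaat
Kcnj15 held 1 E-box, Kcnn4 1 T-box site and 1 E-box (CACGTG), and this Kcnab1 start 1 GATA site and 1 E-box, while Kcnh2 held none of the 5 motifs. Over all 32851 promoters of this length, 26.5% held a GATA site, 11.8% the T-box site, 66.2% an E-box, 2.92% a MEF2 site and 1.47% a CArG box. Over the 103 promoters of members the shares were 20.4%, 10.7%, 67%, 0.971% and 0%. A match gives the letters of the window and says nothing about binding.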

How the data were processed

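RNA of 12 cultures was hybridised to Affymetrix Mouse Genome 430A 2.0 arrays. The submitters' processing notes name RMA and Partek, but the values the authors deposited are linear signal intensity with a trimmed mean of 500 on every array, so their log2 was taken here although RMA log2 values had been assumed. How the scaling was done is not given in the sources used here. Members and gene lists were chosen with earlier results of these data known. Differences were fitted with limma 3.58.1 (R 4.3.3) over 22626 probe sets without controls, with 1 mean per group, and p-values were adjusted by Benjamini-Hochberg over all of them. A call needed an adjusted p under 0.05 and a fold over 1.5, and folds against a group below a log2 signal of 5 are bounds. Symbols come from the platform annotation (20380 probe sets with 1 symbol, 691 with several, 1555 with none). Named genes are the members called in any comparison and the listed cardiac channels, with every array's value for at least the 14 largest changes among members above a mean log2 signal of 5. The number of arrays limits precision. Nothing in the labels ties arrays to separate embryos or cultures beyond calling them biological replicates, so p-values measure the spread between these arrays. Alternatives changed the scaling, offset, filter, probe set rule, fit, threshold and arrays used. The fit was tested on simulated data.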

Additional observations from a re-analysis of the deposited data

Results flagged for a closer look

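Kcnk3 and Cacna2d3 differed between TF groups in a direct test while their differences from the negative control had opposite signs. For Kcnk3, TF group 2 exceeded TF group 1 by a log2 difference of 2.93 (adjusted p = 0.0172), and TF group 3 exceeded it by 3.43 (adjusted p = 0.00446). Its differences from the negative control were -1.91, 1.01 and 1.52 in TF groups 1, 2 and 3, only the first of which was called, and all of them rest on a probe set with a mean log2 signal below 5. Cacna2d3 differed by -0.72 between TF group 3 and TF group 1 (adjusted p = 0.0209), with differences from the negative control of -0.10 in TF group 3 and 0.62 in TF group 1. For Cacna2d3 the opposite signs hold on the deposited scale alone. On the spike scale the differences from the negative control were -0.94 in TF group 3 and -0.35 in TF group 1, and the difference between TF groups 3 and 1 was -0.59 and not called (adjusted p = 0.311). The call between TF groups was also lost without any 1 of 4 arrays (-0.62 to -0.73 without them). The difference of Kcnk3 between TF groups 2 and 1 lost its call without any 1 of 4 arrays (2.81 to 2.86), and on the spike scale it kept it (3.08).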

How the results depend on the processing

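Of 54 called differences, 12 kept their call under every alternative (Kcnab1 and Scn3b in all 3 TF groups, Kcnn4 in TF group 3, Kcnc4 in TF group 1, and Kcnj15 in TF groups 2 and 3 and against TF group 1), and 19 under all but spike scaling. The causes of the changes were not tested. Counts are given in the order TF groups 1, 2 and 3 against the negative control. Spike scaling gave 2, 3 and 3 members higher and 32, 27 and 26 lower, 0 between TF groups 3 and 2, and 35 in the F test, with the shares of all genes not counted. It changed the sign of 52 of 131 named differences, 36 of them called on neither scale. The others were Cacna1f in TF group 3 (-0.14), Cacna1g in TF group 1 (-0.29), Cacna1h in TF groups 1 and 2 (-0.032 and -0.090), Cacna2d3 in TF groups 1 and 2 (-0.35 and -0.79), Cacnb1 in TF groups 2 and 3 (-0.12 and -0.23), Kcna4 in TF group 3 (-0.21), Kcnh2 and Kcnj15 in TF group 1 (-0.38 and -0.27), Kcnj12 in TF groups 1 and 3 (-0.91 and -0.79), Kcnj5 in TF group 2 (-0.78) and Kcnn1 in TF groups 1 and 2 (-0.30 and -0.20). Median centring gave 7 higher in TF group 1. An offset of 50 gave 6 higher and 1 lower in TF group 1, 3 lower in TF group 2, 5 between TF groups 2 and 1 and 2 between TF groups 3 and 2. Without dim probe sets 2 were lower in TF group 1 and 3 in TF group 2. The mean of a gene's probe sets gave 2 lower in TF group 1, 1 between TF groups 2 and 1 and 0 between TF groups 3 and 2. With an adjusted p under 0.01, 7, 6 and 5 were higher, 2 were lower in TF group 2, 2 differed between TF groups 3 and 1 and 12 in the F test. Unadjusted, 8, 6 and 8 differed between TF groups 2 and 1, 3 and 2, and 3 and 1. An intensity trend gave 5 between TF groups 2 and 1 and 2 between TF groups 3 and 2, and fits of only the groups compared gave 7 higher in TF group 3 and 2 between TF groups 3 and 2. With the replicate number as a replicate block 52 of the 54 calls held and 2 members differed between TF groups 3 and 2. Arrays of the same number did not deviate together (r from -0.023 to 0.051 over 18 pairs), so the numbers were not taken to pair the cultures. Leaving out single arrays gave 8 to 14, 10 to 15 and 7 to 15 higher, 3 to 5, 3 to 5 and 2 to 3 lower, 2 to 4, 1 to 2 and 3 to 5 between TF groups 2 and 1, 3 and 2, and 3 and 1, and 13 to 21 in the F test.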
